A study of Mus musculus with 6 samples.

Results

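The genes described here are the clustered core and linker histone genes, read on microarrays of newborn mouse islet cells that had or had not switched on Wnt4. A member is a gene whose name in the GRCm38 nomenclature starts with Hist1h, Hist2h, Hist3h or Hist4h and that has a probe whose RefSeq transcript maps to it. There were 48 such genes, under 52 probes, of 45616 features tested in all. Of the 48 members, 38 lie in the Hist1 cluster, 7 in Hist2, 2 in Hist3 and 1 in Hist4. By protein they were 6 linker histones H1, 14 H2A, 12 H2B, 7 H3 and 9 H4. The RefSeq table lists 70 genes with such names, and the other 22, pseudogenes among them, were not matched to a probe.

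Islets were taken at postnatal day 1 from Wnt4eGFPCre;mTmG pups, which carry an EGFP-Cre fusion in the Wnt4 locus and a membrane reporter that turns from tdTomato to GFP once Cre has acted. Cells were separated by FACS into membrane GFP-positive cells (labelled GFPpositive, here Wnt4hi) and membrane GFP-negative cells (GFPnegative, here Wnt4low). The series' design text describes this as a sort of islet cells by their GFP, whereas a legend of the study names the Wnt4low side as pups without the Wnt4eGFPCre transgene, so whether the pups of both groups carried both alleles is not settled here. There were 3 arrays per population, each of a pool of islets from 3 or 4 pups: Wnt4hi replicates 2, 3 and 4 and Wnt4low replicates 1, 3 and 4, and values are given in this order throughout. The reporter marks the history of a cell and not its Wnt4 level at the time of the sort, and the GFP-negative fraction holds every unmarked cell of a handpicked islet, endocrine or not. In bulk RNA of this kind, a smaller number of cells of one type and less RNA per cell cannot be told apart.

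The 6 arrays lay on 1 slide, 70.5% to 79.5% of their probes were well above background, and 0 spots were saturated. Wnt4 itself read 11.20, 10.53 and 10.77 in Wnt4hi and 9.85, 10.11 and 9.31 in Wnt4low (log2 intensity), a log2 fold change of 1.08 with no overlap between the populations. The populations also differed in the markers of cell types. All 12 endothelial markers were lower in Wnt4hi at the unadjusted threshold (8 of them after adjustment), and the median of that list ran from 8.13 to 9.03 in Wnt4hi and from 11.80 to 12.82 in Wnt4low. Of 8 mesenchymal markers 5 were lower (list medians from 10.51 to 11.96 against 12.68 to 13.06), as were 5 of 8 leukocyte markers (9.54 to 10.05 against 10.88 to 11.43). Of 10 beta cell markers 6 were higher in Wnt4hi (13.50 to 13.69 against 10.94 to 12.64), as were 2 of 5 alpha cell markers (12.12 to 12.67 against 8.89 to 11.28). Of 4 delta and PP cell markers, Sst (log2 fold change -0.56) and Hhex (-1.75) were lower, Ppy (1.22) was higher and Ghsr did not pass. Of 7 acinar, 5 ductal and 5 erythroid markers, 1, 1 and 2 were lower and 0 higher. Of the defining endothelial genes Pecam1 and Kdr were well above background on all 3 Wnt4hi arrays, and Tek on 0 of 3. The part of these other cells in the histone values was not tested.

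Core histones are the proteins around which DNA is wound in the nucleosome, and linker histones bind where the DNA enters and leaves it. Most of their genes lie in clusters, are transcribed together as DNA is replicated, and give an mRNA that ends in a stem-loop in place of a poly(A) tail. Stem-loop binding protein (Slbp) and a U7 small nuclear RNA complex make that end. A few clustered members are known from other tissues to give a polyadenylated mRNA as well, which lasts outside S phase, and of these Hist1h1c, Hist1h2bc, Hist2h2be and Hist4h4 were measured here. Endocrine cells of the newborn islet still divide, and most stop doing so as the islet matures.

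Promoters of some of the members that the results turn on are shown first (Hist1h2bc and Hist2h2be are not in the promoter table), as the 250 bases (1 of them shorter) before the RefSeq start site on the strand of the gene (GRCm38.p6). Capitals mark TATAAA on the strand of the gene, and on either strand CCAAT, the octamer ATTTGCAT known from H2B promoters, and AAACACA, the core of the AC box known from H1 promoters. Hist1h1c (chr13:23738557-23738806, plus strand) is the linker histone that was higher in Wnt4hi, and Hist1h1b (chr13:21780626-21780875, minus strand) is the linker histone with the lowest log2 fold change.

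Hist1h1c: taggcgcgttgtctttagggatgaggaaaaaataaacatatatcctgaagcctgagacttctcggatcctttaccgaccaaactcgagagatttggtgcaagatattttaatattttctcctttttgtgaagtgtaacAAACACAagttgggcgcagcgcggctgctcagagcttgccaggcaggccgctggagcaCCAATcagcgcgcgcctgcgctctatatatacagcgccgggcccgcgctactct
Hist1h1b: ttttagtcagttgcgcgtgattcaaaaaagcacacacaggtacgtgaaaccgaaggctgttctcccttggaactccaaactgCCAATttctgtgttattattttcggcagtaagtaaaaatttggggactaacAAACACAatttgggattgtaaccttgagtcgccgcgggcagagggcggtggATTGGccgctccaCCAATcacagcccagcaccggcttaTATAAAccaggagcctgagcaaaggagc

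Both promoters hold AAACACA and CCAAT, and TATAAA lies in that of Hist1h1b only. The next stretches belong to H2B genes that were higher in Wnt4hi. Hist3h2ba (chr11:58948661-58948910, plus strand) lies in the small Hist3 cluster, and RefSeq places the predicted lncRNA Gm51864 over the same bases. Hist1h2bq starts 168 bases from the H2A gene Hist1h2ao, which is read the other way, and only the 167 bases between both starts are shown (chr13:21810200-21810366, minus strand, as read towards Hist1h2bq).

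Hist3h2ba: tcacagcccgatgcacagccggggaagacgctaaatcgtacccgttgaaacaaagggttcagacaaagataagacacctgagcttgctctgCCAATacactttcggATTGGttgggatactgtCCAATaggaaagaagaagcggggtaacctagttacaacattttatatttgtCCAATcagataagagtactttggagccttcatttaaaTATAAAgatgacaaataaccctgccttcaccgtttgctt
Hist1h2bq: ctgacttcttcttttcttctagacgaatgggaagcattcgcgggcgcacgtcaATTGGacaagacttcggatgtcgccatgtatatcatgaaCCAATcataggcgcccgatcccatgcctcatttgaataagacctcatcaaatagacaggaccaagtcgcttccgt

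The last belongs to the H4 gene with the lowest log2 fold change of its family, Hist1h4j (chr13:21734784-21735033, plus strand), and holds no match to these motifs.

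Hist1h4j: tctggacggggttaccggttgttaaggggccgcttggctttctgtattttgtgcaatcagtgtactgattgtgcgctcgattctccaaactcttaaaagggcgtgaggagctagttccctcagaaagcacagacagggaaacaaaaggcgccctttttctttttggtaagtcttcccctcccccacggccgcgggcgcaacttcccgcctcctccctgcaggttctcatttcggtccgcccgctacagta

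Over the 44 windows of the 43 members in the table (Hist1h2be has a pair), TATAAA was found in 40.9%, against 7.59% of all 32851 windows, and CCAAT in 86.4% against 33.8%. Every H1, H2A, H2B and H3 window held CCAAT, but 2 of 8 H4 windows did. The octamer was in 5 of 14 H2A and 5 of 11 H2B windows and in 0 of the others, or 22.7% of members against 1.6% of all windows. AAACACA was in 5 of 6 H1 windows, and in 20.5% of members against 6.25% of all. These counts describe letters in a window. Windows of divergent neighbours overlap and are not independent.

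Few members differed between the populations, and the number called in each direction depended on the processing. At the study's unadjusted threshold of p below 0.05 (limma), 0 of the 48 members were lower in Wnt4hi, where 5.53% of all features were, and 6 were higher, where 5.02% of all features were. After Benjamini-Hochberg adjustment over all 45616 features 0 members passed (0.438% of features did), and the lowest adjusted p was 0.154, for Hist1h1c. By sign alone 31 members lay below 0 and 17 above (36.5% of all features lay below 0). Their median log2 fold change was -0.08, beside 0.07 over all features. All 3 Wnt4hi arrays read above all 3 Wnt4low arrays in 5 members (9.56% of features) and below them in 0 (6.44% of features). The count of members lower depended on 1 array more than on the others: without Wnt4hi replicate 2 it was 10 (5.27% of all features), without Wnt4low replicate 3 it was 4 (5.72%), and without each of the other arrays it was 0 or 1. In the authors' table of log2 values 6 members were lower and 3 higher (6.92% and 5.34% of its features), and with the replicate number as a block 4 were lower and 2 higher (6.11% and 4.51% of features). The plot of changes by family shows the members with their standard errors.

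**Figure D1:**
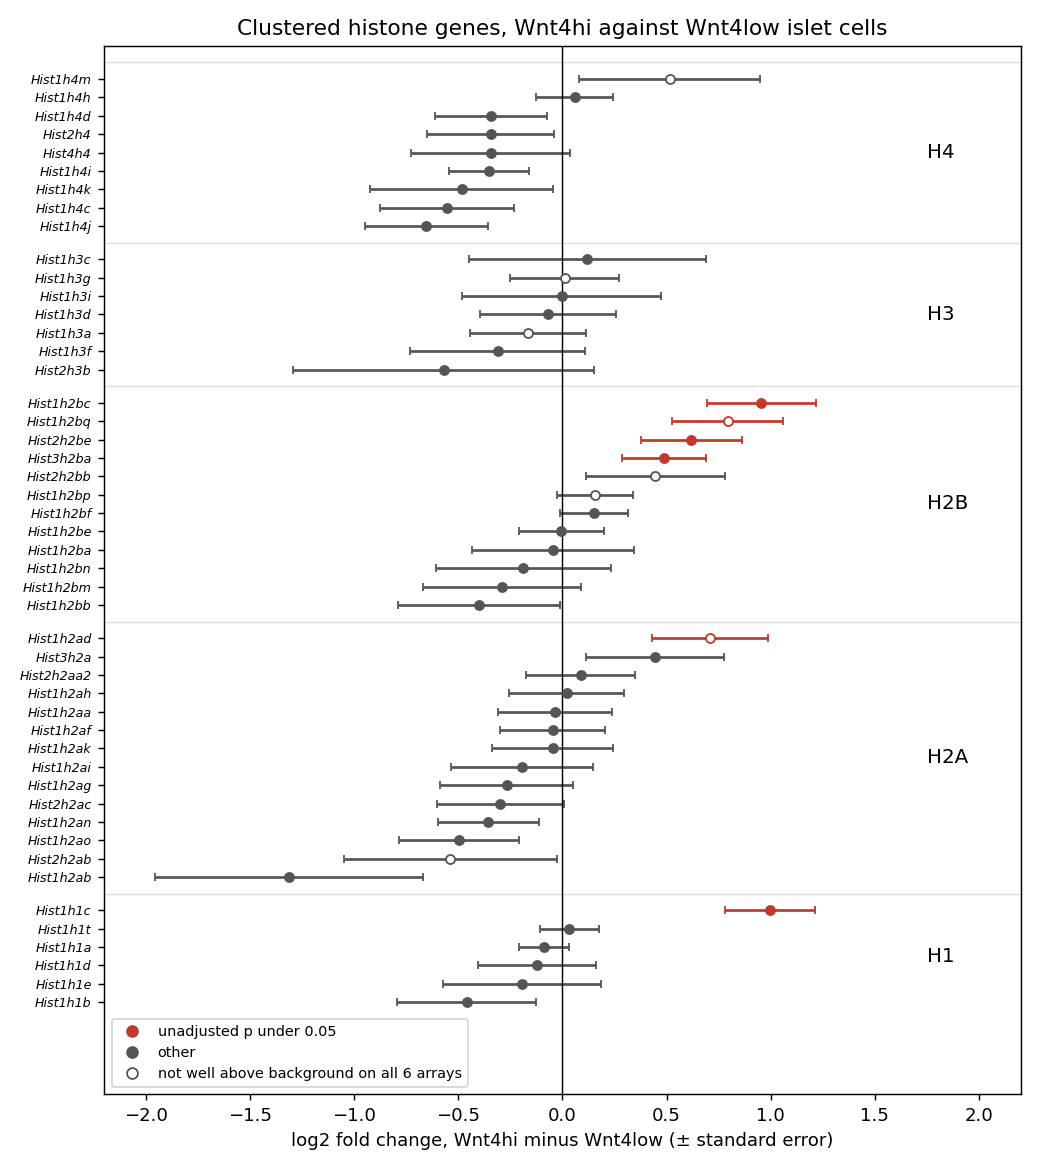
Log2 fold change of each of the 48 members (Wnt4hi minus Wnt4low, 3 arrays each, horizontal axis) with its standard error, grouped by histone family. Red points passed an unadjusted p of 0.05 and open points were not well above background on all 6 arrays; the 6 red points all lie above 0, and 4 of them are H2B genes.

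Of the linker histones, Hist1h1c was higher in Wnt4hi and the other 5 did not pass the threshold. Hist1h1c encodes H1.2, one of the somatic subtypes, and read 9.78, 9.60 and 9.74 in Wnt4hi and 8.68, 9.11 and 8.34 in Wnt4low. Every Wnt4hi array was above every Wnt4low array, and the Wnt4hi arrays lay close together (SD 0.09, n = 3) beside the Wnt4low arrays (SD 0.38, n = 3). The log2 fold change was 1.00 (SE 0.22, a fold of 2.00, adjusted p = 0.154 by limma). It passed the unadjusted threshold in all 18 alternatives that gave it a value, between 0.81 and 1.20.

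Hist1h1b, encoding H1.5, read 10.72, 11.19 and 10.69 in Wnt4hi and 11.94, 10.72 and 11.31 in Wnt4low. The highest value was Wnt4low replicate 1 and the lowest Wnt4low value lay within the Wnt4hi range, so the populations overlapped (log2 fold change -0.46, SE 0.33). Hist1h1e, encoding H1.4, read 11.79, 10.41 and 10.62 against 10.99, 11.39 and 11.02, with Wnt4hi replicate 2 the highest and the other Wnt4hi arrays the lowest of the 6 (log2 fold change -0.20, SE 0.38). Without that array its log2 fold change was -0.62 and passed the unadjusted threshold. Hist1h1d, encoding H1.3, read 8.60, 9.04 and 8.50 against 9.38, 8.46 and 8.67, and the populations overlapped.

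Hist1h1a, encoding H1.1, varied little, with 10.21, 10.15 and 10.07 in Wnt4hi and 10.29, 10.20 and 10.22 in Wnt4low (log2 fold change -0.09, SE 0.12). Hist1h1t, the linker histone of the testis, read 10.86, 11.12 and 10.88 against 10.97, 11.01 and 10.79 (log2 fold change 0.03, SE 0.14). The spread of these 2 genes over the 6 arrays was narrow, and neither population stood apart.

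The H2B family held 4 of the 6 members that were higher in Wnt4hi, and its median log2 fold change of 0.15 was above that of all features. The proteins of this family pair with H2A in the nucleosome. Hist1h2bc read 11.34, 11.14 and 11.73 in Wnt4hi and 10.00, 10.81 and 10.53 in Wnt4low, with no overlap (log2 fold change 0.96, SE 0.26, a fold of 1.94, adjusted p = 0.251 by limma). It passed the unadjusted threshold in 18 of 19 alternatives, all but the fit with the replicate number as a block.

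Hist2h2be read 11.28, 11.93 and 12.15 in Wnt4hi and 11.16, 11.26 and 11.08 in Wnt4low. The lowest Wnt4hi array was just above the highest Wnt4low array, and the log2 fold change was 0.62 (SE 0.24, adjusted p = 0.450 by limma). A second probe for this gene read 11.16, 11.49 and 11.43 against 10.68, 10.90 and 10.85, again with no overlap and with a log2 fold change of 0.55.

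Hist1h2bq read 8.88, 8.36 and 8.12 against 7.35, 8.03 and 7.60, and was well above background on 3 Wnt4hi and 2 Wnt4low arrays (log2 fold change 0.79, SE 0.27, adjusted p = 0.360 by limma). Hist3h2ba read 10.38, 10.09 and 10.11 against 10.03, 9.69 and 9.40 (log2 fold change 0.49, SE 0.20, adjusted p = 0.471 by limma). Neither gene overlapped between the populations, but the calls were less steady. Hist2h2be and Hist1h2bq each passed the unadjusted threshold in 12 of 19 alternatives and Hist3h2ba in 4 of 18, with the log2 fold change above 0 in each.

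**Figure D2:**
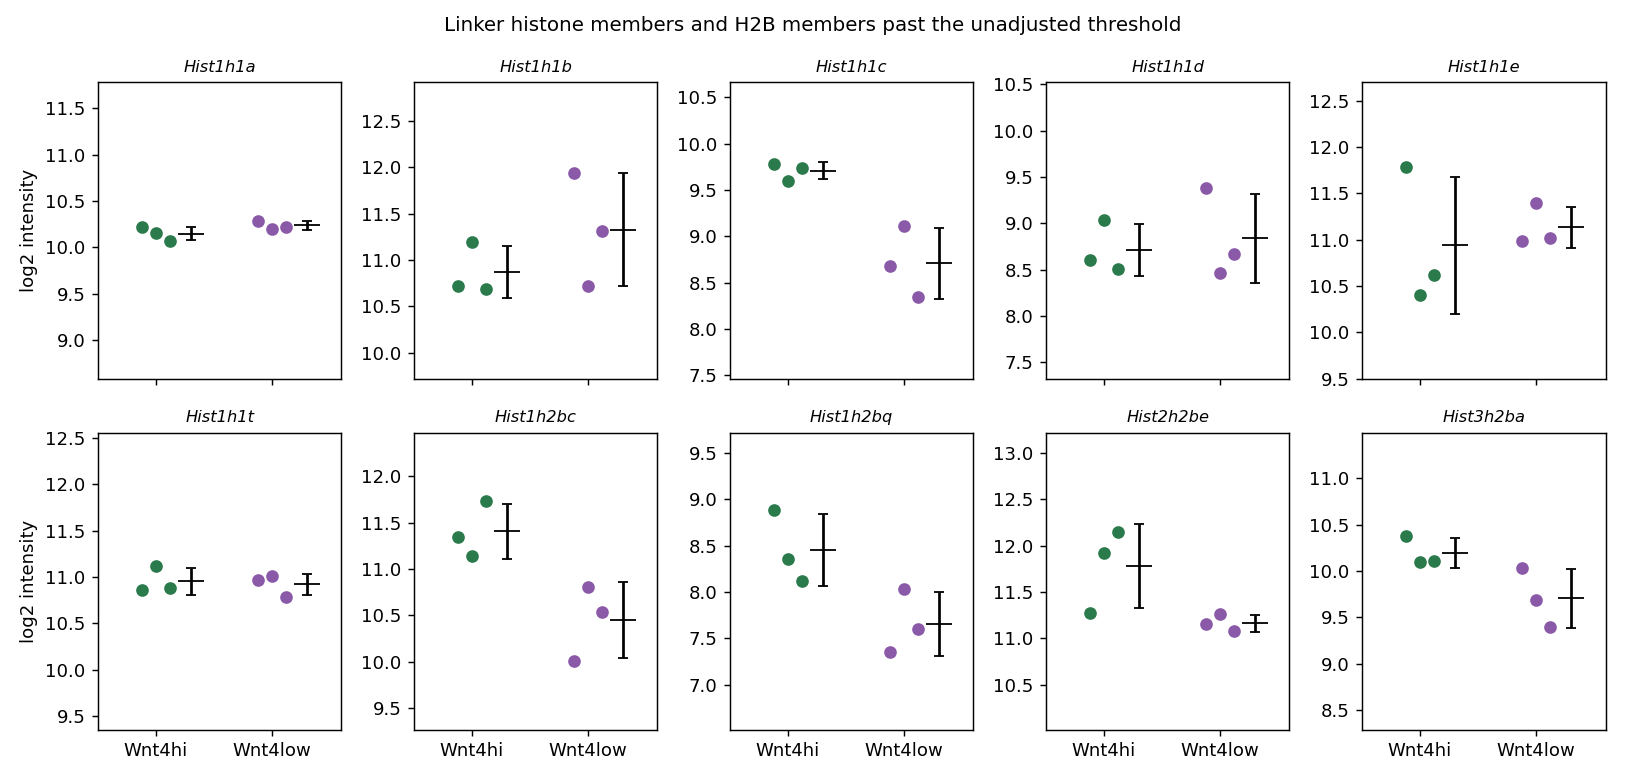
Log2 intensity on each array of the 6 linker histone members and of the 4 H2B members past the unadjusted threshold, with the mean and SD (n = 3) of each population beside its points. Each panel spans the same range of log2 units but has its own position; Hist1h1c and the 4 H2B genes have all Wnt4hi points above all Wnt4low points.

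The other 8 H2B members had log2 fold changes between -0.40 and 0.45 and overlapped between the populations. Hist1h2bm, chosen with Hist1h2ba as a probe of high signal, read 13.84, 12.60 and 12.51 against 13.20, 13.08 and 13.53. Its Wnt4hi replicate 2 was the highest of all 6 arrays and the other Wnt4hi arrays the lowest, and without that array the log2 fold change went from -0.29 to -0.72 and passed the unadjusted threshold. Hist1h2ba, an H2B of the testis, read 13.69, 12.33 and 12.30 against 12.76, 12.95 and 12.75, the same order (-0.05, and -0.50 past the threshold without that array).

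Of the 14 H2A members 10 lay below 0, and 1 passed the threshold. That gene was Hist1h2ad (7.56, 6.56 and 7.02 against 6.19, 6.58 and 6.23), named here after its values were seen. Its populations overlapped and on 0 of 6 arrays was its probe well above background, so its log2 fold change of 0.71 compares signals near the background. Hist1h2ab, also named after its values were seen, had the lowest log2 fold change of all members at -1.31 (SE 0.64). It read 7.99, 9.31 and 7.77 against 10.76, 8.60 and 9.66, the populations overlapped, and the difference did not pass the threshold (limma adjusted p = 0.568).

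The H2A probes of high signal differed by less than the spread between arrays. Hist1h2ah read 14.07, 13.15 and 13.39 against 13.74, 13.56 and 13.24 (log2 fold change 0.02, SE 0.28), and Hist2h2aa2 read 13.75, 13.42 and 13.07 against 13.74, 13.03 and 13.21 (0.09, SE 0.26). In both genes replicate 2 of Wnt4hi and replicate 1 of Wnt4low were the highest of their population. Hist3h2a, the H2A gene beside Hist3h2ba, read 13.02, 12.65 and 11.85 against 12.33, 11.75 and 12.10, with overlap (0.45, SE 0.33). Hist1h2aa, an H2A of the testis, read 13.72, 13.02 and 13.04 against 13.66, 13.27 and 12.95 (-0.03, SE 0.27).

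Of the 7 H3 members 0 passed the threshold, 5 lay below 0 and the median was -0.07. Hist1h3d read 13.63, 12.90 and 12.67 against 13.59, 12.76 and 13.06, and Hist1h3c read 13.33, 11.66 and 11.46 against 12.75, 11.60 and 11.74. In both the first array of each population was the highest, and the difference between arrays of 1 population was larger than that between the populations (log2 fold changes -0.07 and 0.12). The widest spread was that of Hist2h3b (12.04, 10.61 and 9.87 against 12.63, 10.63 and 10.96), which was named for it afterwards.

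H4, the partner of H3, was the family with the lowest median, at -0.34, with 7 of 9 members below 0 and 0 past the threshold. The range was from -0.65 for Hist1h4j to 0.51 for Hist1h4m, whose probe was well above background on 2 Wnt4hi arrays only. Hist1h4d read 13.92, 12.91 and 13.24 against 13.80, 13.64 and 13.66, and Hist2h4 read 13.73, 13.19 and 12.89 against 14.06, 13.20 and 13.58 (-0.34 in both). Populations overlapped in both genes. Hist4h4, a gene that lies apart from the large clusters, read 12.08, 10.93 and 10.96 against 12.16, 11.51 and 11.35 (-0.34, SE 0.38). Hist1h4j read 11.05, 10.34 and 10.41 against 11.62, 10.76 and 11.38, with the highest Wnt4hi array between the Wnt4low arrays (SE 0.30, limma adjusted p = 0.530).

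A second probe was held for 4 members, and both probes of each had the same sign. The log2 fold changes were -0.40 and -0.39 for Hist1h2bb, -0.34 and -0.42 for Hist1h4d, -0.48 and -0.69 for Hist1h4k, and 0.62 and 0.55 for Hist2h2be. Coding sequences within a core histone family are close to identical, so a probe may also read mRNA of other members and a value cannot be assigned to 1 gene with certainty. The specificity of the probes, those of linker histones included, was not tested. Of the 48 members 40 were well above background on all 6 arrays. In this set 29 lay below 0 with a median of -0.15, and 0 were lower and 4 were higher at the unadjusted threshold. The alternative with a filter on dim probes kept 42 members and 31996 features. Of its features 7.04% were lower and 5.77% were higher.

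Members varied together from array to array more than they did between the populations. With each gene set to its own mean over the 6 arrays, the median member was at 0.39, -0.16 and -0.37 in Wnt4hi and at 0.32, -0.16 and -0.04 in Wnt4low. Over all members, each population thus had 1 array with a high median, but not every family followed it. The H1 members were at -0.03, 0.14 and -0.20 in Wnt4hi and at 0.06, -0.05 and -0.06 in Wnt4low, and the H2B members were at 0.03 in Wnt4low replicate 1. Wnt4hi replicate 2 was the highest Wnt4hi array in 38 of 48 members, or 79.2%, where it was the highest in 40.2% of all features. Wnt4low replicate 1 was the highest Wnt4low array in 32 of 48 members, or 66.7%, against 39.5% of all features. These counts were made after the values were seen, and they describe the arrays without a test.

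S-phase genes did not follow the same arrays in Wnt4hi. The median of the 28 S-phase replication genes was at -0.14, -0.09 and -0.22 in Wnt4hi and at 0.31, -0.21 and 0.51 in Wnt4low, and Wnt4hi replicate 2 was the highest Wnt4hi array in 10 of the 28. The median of the 20 G2/M genes was at -0.38, -0.22 and -0.26 in Wnt4hi and at 0.65, -0.24 and 0.44 in Wnt4low. In Wnt4low replicate 1 all of these groups were high, whereas in Wnt4hi replicate 2 the core histone members were high (0.40) and the S-phase and G2/M genes were not. Both of these arrays came from pools of 4 pups, as did both replicates 3. By measures of array quality Wnt4hi replicate 2 lay inside the range of the others, with 73.6% of probes well above background. Its mesenchymal marker median was at 0.30, beside -1.41 and -0.83 in Wnt4hi replicates 3 and 4. Its beta cell median (0.65, beside 0.75 and 0.32) lay between theirs. In Wnt4low replicate 1 the alpha cell median was at -2.51 (-0.11 and -0.08 in Wnt4low replicates 3 and 4). There the beta cell median was at -1.10 (0.05 and -0.63) and the endothelial median at 2.30 (1.34 and 1.64). In the authors' table the column for Wnt4hi replicate 2 did not match the array of that name, and the reason is not known. After each gene was centred it correlated at 0.271 with that array and at 0.287 with Wnt4hi replicate 3, and no array matched it better. The other 5 columns matched their arrays at 0.843 to 0.872. The part of cell content, RNA quality or amplification in the histone pattern of these arrays was not tested.

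**Figure D3:**
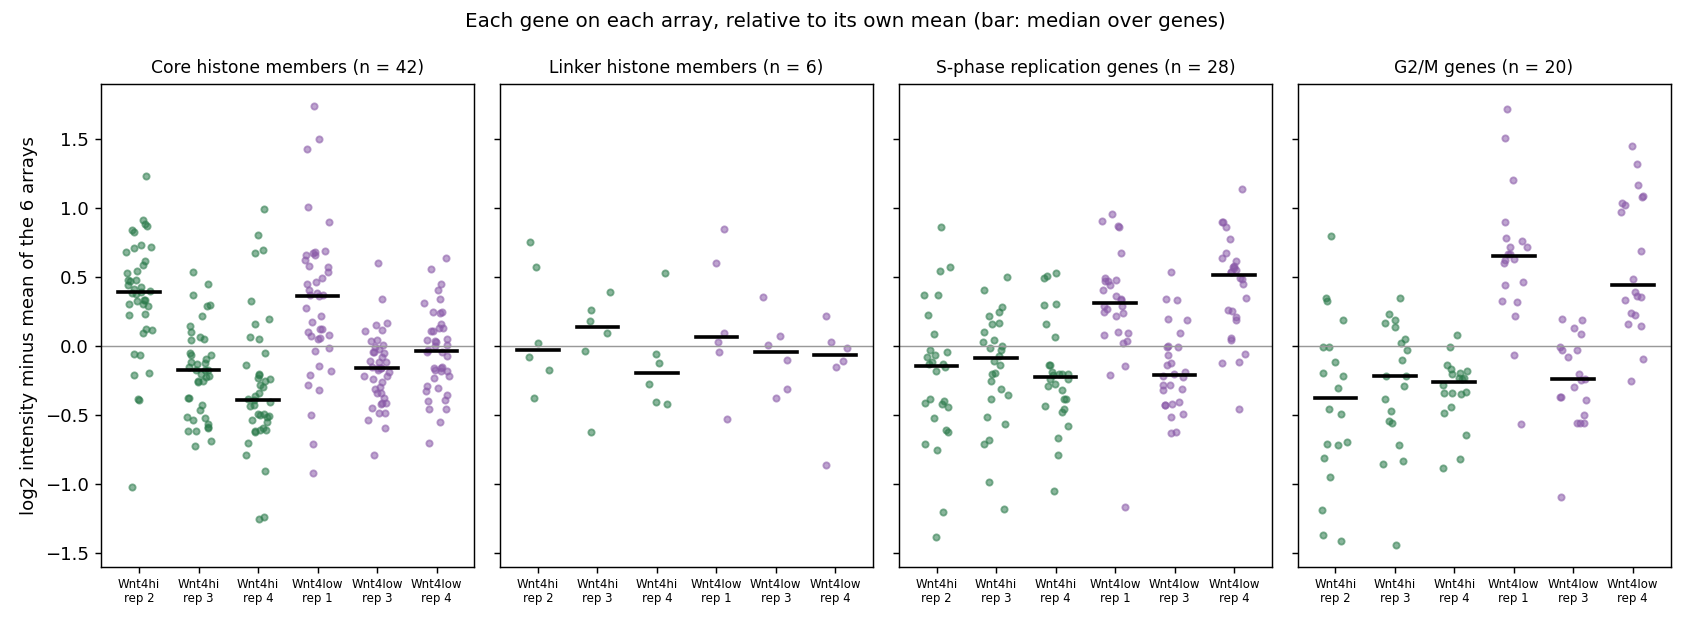
Log2 intensity of each gene on each array minus its mean over the 6 arrays (vertical axis), for core histone members, linker histone members, S-phase replication genes and G2/M genes, with green for Wnt4hi and purple for Wnt4low. Black bars are medians over genes; for core histones they are high in Wnt4hi replicate 2 (0.40) and Wnt4low replicate 1 (0.37), and for G2/M genes in Wnt4low replicates 1 and 4.

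With both of these arrays left out, 6 members were lower and 4 were higher at the unadjusted threshold, where 5.58% and 4.18% of all features were, an alternative chosen after the data were seen. The median log2 fold change was then -0.10. Hist1h1c and Hist1h2bc lay above 0 at every setting that gave a value, Hist1h1c between 0.81 and 1.20 and Hist1h2bc between 0.73 and 1.14.

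Genes of the cell cycle were counted in the same way. Of the 28 S-phase replication genes 7 (25%) were lower in Wnt4hi and 0 higher at the unadjusted threshold, where 5.53% and 5.02% of all features were. Their median log2 fold change was -0.45. Those of lowest p were Rrm1 (-0.77), the large subunit of ribonucleotide reductase, Pcna (-0.83), the sliding clamp of the replication fork, and Pole (-0.60), a replicative polymerase. Of the 20 G2/M genes 9 (45%) were lower and 0 higher, with a median of -0.63. Among those lower were Birc5 (-1.29), Ube2c (-0.85), Tpx2 (-1.27) and Mki67 (-1.38), which is present in cycling cells. No gene of either list passed the adjusted threshold. A difference between these lists and the histone members was not tested, and the count of 0 histone members lower was not stable. It was 10 of 48 without Wnt4hi replicate 2 (5.27% of all features) and 4 without Wnt4low replicate 3 or with the replicate block. In the authors' table it was 6. That table's column for Wnt4hi replicate 2 does not match the array, so it is not a check separate from leaving that array out.

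**Figure D4:**
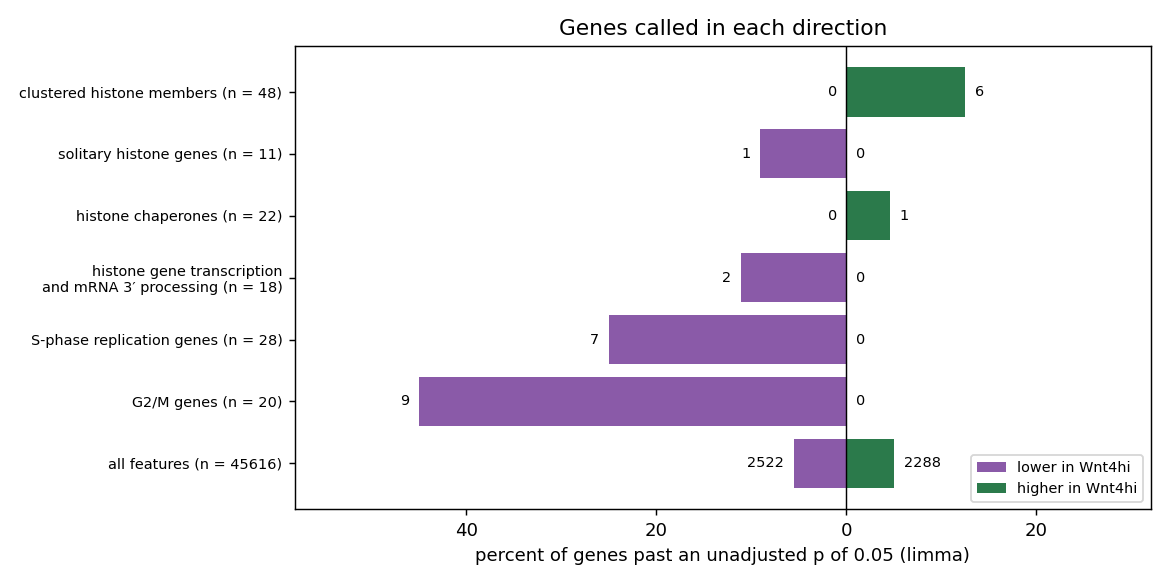
Percent of each gene group past an unadjusted p of 0.05 (limma, 3 against 3 arrays), lower in Wnt4hi to the left and higher to the right, with the number of genes at each bar. Of the clustered histone members 0 were lower and 6 higher, of the G2/M genes 9 were lower and 0 higher, and all 45616 features are shown for reference.

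Genes of the machinery that makes histone mRNA were counted too. Of 18 genes for its transcription and 3′ processing 2, or 11.1%, were lower, where 5.53% of all features were. Of the same genes 0 were higher (5.02% of all features were), and the median was 0.04. Lsm10 (log2 fold change -1.15), a protein of the U7 particle, and Srrt (-0.73), which links the cap-binding complex to processing, were the genes that were lower. Slbp, which binds the stem-loop and is also counted among the S-phase genes, was at 0.03 (SE 0.53), and Npat, the coactivator that turns histone clusters on, was at -0.14 (SE 0.52). These standard errors leave room for differences of the size seen in S-phase genes. Of 22 histone chaperones 0 were lower and 1 (4.55%, beside 5.02% of all features) was higher, with a median of -0.07. The chaperone that was higher was Ubn1 (0.42), which belongs to the complex that places H3.3.

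Solitary histone genes, most of which are expressed outside S phase and give polyadenylated mRNA, had a median of 0.02 over 11 genes. By the unadjusted threshold 1 gene, or 9.09%, was lower in Wnt4hi, where 5.53% of all features were. It was H2afx (H2ax, the variant phosphorylated at DNA breaks), at -0.76 (SE 0.28). The others did not pass: H2afz, the variant H2A.Z, was at -0.04, and H3f3a and H3f3b, which both encode H3.3, were at 0.31 and 0.12. H1f0, the linker histone of resting cells, was at 0.66 with a wide error (SE 0.64), and Cenpa, the H3 of the centromere, was at -0.16.

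Of the 4 members known from other tissues to make polyadenylated mRNA as well, Hist1h1c, Hist1h2bc and Hist2h2be were higher in Wnt4hi and Hist4h4 was not, with a median of 0.79. The list was drawn up with earlier results of these data known, so its count is no independent evidence. Which mRNA end the probes read was not measured. Of the 3 testis members 0 passed, with a median of -0.03. Their probes were bright in these islet cells, with means of 13.27 (Hist1h2aa), 12.80 (Hist1h2ba) and 10.94 (Hist1h1t). Whether these probes read mRNA of other family members was not tested, so the signals do not show expression of testis genes. In the Hist3 cluster both members lay above 0, and 1 passed.

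Neighbours that start within 1000 bases of each other and are read in opposite directions were compared last. Among the 43 members whose strand the tables give there were 5 such pairs of an H2A and an H2B gene, and 3 had the same sign, but in 2 pairs the probe of Hist1h2ad or Hist1h2bp was well above background on 0 of 6 arrays, so that the sign of that gene carries no weight. In the pair whose shared stretch is printed above, Hist1h2bq was at 0.79 and Hist1h2ao at -0.50 (11.90, 11.30 and 11.08 against 12.36, 11.63 and 11.79), where only Hist1h2bq passed the threshold. The populations overlapped in Hist1h2ao as in the 4 other pairs. Hist2h2be, which was higher in Wnt4hi, lies beside the H2A gene Hist2h2ac (-0.30) but is among the members without a strand and was not counted.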

How the data were processed

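The authors deposited, for each array, scanner output with the intensity of every spot and of its local background (Cy5, SurePrint G3 Mouse v2, Agilent Feature Extraction; the labels give version 9.1 and the file headers 12.0.1.1), not normalized, and a table of normalized log2 values for 36693 rows. RNA had been amplified to cDNA before labelling. From the deposited intensity of 59305 non-control spots (56605 probes), the background was corrected with normexp (offset 50), log2 values were quantile normalized, spots marked as outliers or not uniform were left out, and the probe with the highest mean stood for a gene (limma 3.58.1, R 4.3.3). Of 35886 probes with a RefSeq-type name, 32994 matched the RefSeq table of GRCm38.p6.

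Populations were compared with lmFit and eBayes on all 6 arrays without covariates, with the unadjusted threshold of 0.05 used in the study and Benjamini-Hochberg adjustment over 45616 features. The labels do not say whether same-numbered samples share a pool. Precision is limited by having 3 arrays per population. All arrays lay on 1 slide, so no batch was tested. The calculation was tested on simulated data. In the authors' log2 table, the column for Wnt4hi replicate 2 correlated at 0.271 with that array after centring of genes, whereas the other 5 correlated from 0.843 to 0.872, so that table was used as an alternative only.

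The members and lists were chosen with earlier results of these data known. Named are all linker histones, in each core family the 2 probes of highest signal and up to 3 members past the unadjusted threshold without overlap, the Hist3 and Hist4 loci, the lists of polyadenylated and testis members, and at most 4 genes of each other pathway list plus 8 histone genes and regulators in any case. The value of 1 gene that this rule names is not reported here. Promoter sequences are those of RefSeq (GRCm38.p6). Alternatives changed the background correction, the normalization, the filter on dim probes, the probe rule, the variance model and the test, and left out each array in turn.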

Additional observations from a re-analysis of the deposited data

How the results depend on the processing

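No member passed the adjusted threshold under any of the 19 alternatives, but several of these could hardly show one. By the methods' t-test, with the block and without both named arrays 0 of all features passed. The same held without Wnt4hi replicate 3 or 4 and without Wnt4low replicate 1, 3 or 4. Without Wnt4hi replicate 2 only 2 features passed. The count of members lower in Wnt4hi (0) was 6 in the authors' table, 4 with the replicate number as a block, 6 without both Wnt4hi replicate 2 and Wnt4low replicate 1 (chosen after seeing the data), and from 0 to 10 with each array left out in turn, 10 being without Wnt4hi replicate 2. The count of members higher (6) was 2 by the methods' t-test, 3 in the authors' table, 2 with the replicate block and from 2 to 5 with each array left out. The cause was not tested. The replicate numbers were not taken to pair the samples: only 2 are shared, with correlations of -0.03 and 0.16, and the block leaves 1 residual degree of freedom between arrays and calls 0 features after adjustment. The median over the members went from -0.29 (authors' table) to 0.07 (without Wnt4hi replicate 4), that of H4 was below 0 and that of H2B above 0 at every setting, and those of H1, H2A and H3 changed sign at some.

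Single members near 0 changed sign. Hist1h2ah (0.02) was at -0.25 with the processed signal, -0.11 with median centring, -0.0258 with cyclic loess, -0.32 in the authors' table and -0.13 with the block. Hist1h3c (0.12) was at -0.00176 with the processed signal, -0.39 in the authors' table and -0.11 with the block. Hist2h2aa2 was at -0.0489 with median centring, Hist1h1t at -0.00518 with cyclic loess and Hist1h1d at 0.20 with the block. With 1 array or both named arrays left out, the values went from -0.24 to 0.21 for Hist1h2ah, -0.47 to 0.48 for Hist1h3c, -0.0796 to 0.30 for Hist2h2aa2, -0.0499 to 0.10 for Hist1h1t, -0.31 to 0.20 for Hist1h1d, -0.69 to 0.0692 for Hist1h1e, -0.26 to 0.15 for Hist1h2aa, -0.53 to 0.19 for Hist1h2ba and -0.35 to 0.16 for Hist1h3d.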
